A study of Homo sapiens with 12 samples.

Results

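The long non-coding RNAs MEG3, KCNQ1OT1 and NORAD were followed through 12 libraries of K562, an established line of human leukaemia cells grown in suspension. The 3 genes were chosen by name, not by a measured value, and stand among 21874 transcriptional units that the authors drew from these libraries. The spans used, on hg38 (GRCh38), were chr14:100779410-100861031 on the plus strand for MEG3, chr11:2608328-2699994 on the minus strand for KCNQ1OT1 and chr20:36045618-36051018 on the minus strand for NORAD. The RefSeq gene MEG3 starts 46.7 kb inside its span, at 100826108, so its distances are given from that start and its levels per kb over the RefSeq gene of 34.9 kb.

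The cells of all 8 RNA libraries carried no mutation or drug named in the labels and were given 500 µM of the uridine analogue 4-thiouridine (4sU) for 5 min, so that RNA made in that window can be pulled out through its thiol. TT-Seq libraries hold RNA that was sheared in a BioRuptor sonicator and then purified through 4sU. 4sU-Seq libraries hold purified RNA that was not sheared. Total RNA-Frag-Seq libraries hold RNA that was sheared but not purified, here called sheared total RNA. Total RNA-Seq libraries hold RNA with neither step, here called unsheared total RNA. The remaining 4 libraries are from chromatin immunoprecipitation (ChIP) on cells fixed with 1% formaldehyde for 7.5 min, with the antibody N20 against RNA polymerase II or an antibody against its form phosphorylated at serine 2 (S2P). Each of the 6 groups has 2 libraries. The design text calls the RNA pairs biological duplicates, and nothing of the kind is stated for the ChIP pairs, whose spread may be technical. All cells are K562, so each statement concerns this line only. The deposited counts per 200 bp bin summed to 25909021 to 71317148 per RNA library and 12598494 to 73660126 per ChIP library. Among erythroid and megakaryocytic markers of K562, the transferrin receptor gene TFRC had 384 ± 11.3 CPM (counts per 1000000 counts) in TT-Seq and 317 ± 2.89 in sheared total RNA, and the transcription factor gene LMO2 had 342 ± 1.16 and 359 ± 9.72 (SD, n = 2). The globin genes, GATA1, KLF1 and NFE2 had no unit of their name.

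Long non-coding RNAs are transcribed by RNA polymerase II like messenger RNAs but act as RNA. MEG3 is an imprinted gene of the DLK1-DIO3 domain that is expressed from the maternal chromosome, is spliced, hosts a microRNA and stays largely in the nucleus. KCNQ1OT1 is an imprinted, mostly unspliced nuclear RNA expressed from the paternal chromosome. It runs antisense through an intron of the potassium channel gene KCNQ1 and is known for silencing neighbouring genes on the same chromosome, among them CDKN1C and PHLDA2. NORAD is an abundant cytoplasmic RNA made from a gene with a single exon, and it is known for binding proteins such as PUM2 through many repeated sites. Parental alleles and cell compartments were not separated in these libraries.

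The promoter sequences are shown because the fullest N20 bin of each gene overlaps them. RefSeq sequences on GRCh38.p14, from 250 bases before to 50 bases after the gene start, matched MEG3 (chr14:100825858-100826157, plus strand) and NORAD (chr20:36050911-36051210, minus strand). Capitals mark every match to 7 searched motifs, on both strands: TATAAA (the TATA box), CCAAT (the CCAAT box), GGGCGG (a GC box), TGACGTCA (the cyclic AMP response element), CACGTG (an E-box), CCGGAAG (a core bound by ETS factors) and AGATAA (a core bound by GATA factors). The 2 promoters read:
MEG3: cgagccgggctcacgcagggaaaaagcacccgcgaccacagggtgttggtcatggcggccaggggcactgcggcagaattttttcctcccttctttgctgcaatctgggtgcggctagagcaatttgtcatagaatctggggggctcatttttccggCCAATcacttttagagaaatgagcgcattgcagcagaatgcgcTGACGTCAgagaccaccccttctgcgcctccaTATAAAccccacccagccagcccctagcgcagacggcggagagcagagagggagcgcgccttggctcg
NORAD: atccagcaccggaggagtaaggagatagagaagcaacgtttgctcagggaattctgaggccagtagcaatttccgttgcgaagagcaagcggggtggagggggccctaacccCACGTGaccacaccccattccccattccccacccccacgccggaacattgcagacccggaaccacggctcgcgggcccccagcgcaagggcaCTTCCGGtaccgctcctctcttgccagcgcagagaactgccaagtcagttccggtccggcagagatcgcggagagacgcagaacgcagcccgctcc
In MEG3 the letters CCAAT began 93 bases, TGACGTCA 50 bases and TATAAA 18 bases before the start. TGACGTCA was present in 1.8% of 35116 promoters of this length, CCAAT in 34.6% and TATAAA in 11.5%. In NORAD the letters CACGTG began 138 bases before the start, and CCGGAAG, read on the other strand as CTTCCGG, began 46 bases before it. CACGTG was present in 7.3% and CCGGAAG in 10.3% of promoters. No match overlapped another. G and C made up 59.0% of the MEG3 window and 63.0% of the NORAD window, against a median of 58.7% over all promoters. The single bin with the most N20 counts anywhere in MEG3 was the bin centred at its start (158 and 234 counts in the 2 libraries), and in NORAD it was the bin centred 0.1 kb inside the gene (184 and 266 counts).

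The first question was how much of each RNA was present, with and without purification of newly made RNA. In the sheared total RNA NORAD had the highest level per kb and KCNQ1OT1 the lowest, and all 3 levels were lower in TT-Seq. Levels are CPM, the counts scaled to library size, divided by the length in kb. That length takes in long stretches of low counts in MEG3, so the order of the genes depends on it. Before this division MEG3 had the most in sheared total RNA, at a mean of 1792 CPM, against 517 for KCNQ1OT1 and 346 for NORAD. CPM are taken over the features tested and scaled by the trimmed mean of M values (TMM). NORAD stood at 13.8 and 13.3 in TT-Seq, 23.5 and 25.3 in 4sU-Seq, 64.0 and 64.1 in sheared total RNA, and 70.6 and 71.4 in unsheared total RNA. The 4 groups did not overlap, and the purified libraries were the low ones. MEG3 stood at 12.7 and 13.7 in TT-Seq, 33.9 and 34.4 in 4sU-Seq, 50.1 and 52.9 in sheared total RNA, and 45.9 and 47.3 in unsheared total RNA. TT-Seq was again lowest, while the ranges of the total RNA groups lay close together. KCNQ1OT1 stood at 2.62 and 2.61 in TT-Seq, 6.21 and 5.65 in 4sU-Seq, 5.11 and 6.18 in sheared total RNA, and 3.88 and 4.12 in unsheared total RNA. For KCNQ1OT1 the 4sU-Seq and sheared total RNA ranges overlapped. Fewer cells with an RNA and less RNA per cell cannot be told apart in such bulk libraries.

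**Figure D1:**
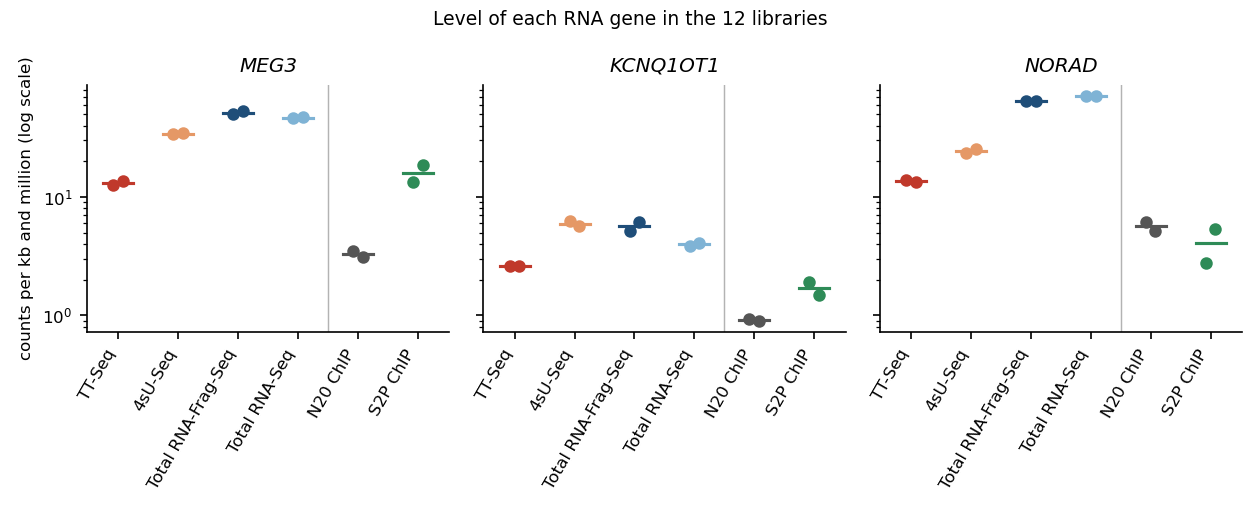
CPM per kb (log axis) of MEG3, KCNQ1OT1 and NORAD over their RefSeq genes; each point is 1 library, each bar the mean of 2, and the grey line parts RNA from ChIP libraries. TT-Seq is the lowest of the 4 RNA groups for each gene, and KCNQ1OT1, at 2.61 to 6.21 in RNA, lies below the other genes.

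On this scale NORAD ranked 56 among 19318 features tested in TT-Seq and 18 in sheared total RNA. MEG3 ranked 297 and 81, counted over the longer span, and KCNQ1OT1 1272 and 608. The opposite strand was nearly silent for each. In KCNQ1OT1, where that strand belongs to KCNQ1, 0.395% ± 0.120 of the counts in TT-Seq and 0.655% ± 0.248 in unsheared total RNA were antisense (SD, n = 2). Counts on the KCNQ1OT1 strand numbered 16357 and 16802 in TT-Seq, against 51 and 81 on the KCNQ1 strand. In NORAD 0.344% ± 0.013 and in MEG3 0.665% ± 0.017 of the TT-Seq counts were on the opposite strand (SD, n = 2).

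Purification of sheared RNA, TT-Seq against sheared total RNA, shows which RNAs gave fewer fragments in the labelled pool than in the whole pool. All 3 genes were lower in TT-Seq, NORAD most and KCNQ1OT1 least. The background was high: 37.8% of 19318 features were called lower and 43.2% higher, so a call alone sets none of the 3 apart. NORAD had 74.6 and 72.0 CPM in TT-Seq against 346 and 346 in sheared total RNA. It fell by 2.24 ± 0.05 on the log2 scale (SE, n = 2 against 2; adjusted p = 6.27e-14 by the quasi-likelihood test of edgeR, with p-values adjusted by Benjamini and Hochberg's method and called at 0.05 throughout), a 4.72-fold lower level, and 0.6% of the features tested had a lower value. MEG3 had 442 and 478 CPM against 1743 and 1842. Its log2 fold change was -1.96 ± 0.05 (adjusted p = 1.78e-13), or 3.9-fold lower, with 1.4% of features below it. KCNQ1OT1 had 240 and 239 CPM against 469 and 566, a log2 fold change of -1.11 ± 0.08 (adjusted p = 2.84e-08) with 10.0% of features below it. Groups did not overlap for any of the 3, but the share of all features without overlap is not given here. The median of all features was 0.09. It was -0.12 over 298 units that the authors class as long intergenic RNA, the class of MEG3 and NORAD, and 1.36 over 3197 antisense units, the class of KCNQ1OT1.

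Purification without shearing, 4sU-Seq against unsheared total RNA, gave the genes different directions. NORAD and MEG3 were lower in 4sU-Seq and KCNQ1OT1 was higher, where 28.2% of features were called lower and 40.2% higher. NORAD had 127 and 137 CPM in 4sU-Seq against 381 and 386 in unsheared total RNA, a log2 fold change of -1.54 ± 0.05 (SE, n = 2 against 2; adjusted p = 7.27e-12). MEG3 had 1180 and 1198 against 1599 and 1646 and changed by -0.45 ± 0.05 (adjusted p = 1.89e-06). KCNQ1OT1 had 569 and 518 against 355 and 378 and was 1.48-fold higher (log2 0.57 ± 0.08, adjusted p = 3.49e-05). For each gene the libraries of the 2 groups did not overlap, and the share of all features without overlap is again not given.

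Shearing was compared in labelled and in total RNA separately. These comparisons share libraries with those above and are not independent of them. In labelled RNA, TT-Seq against 4sU-Seq, all 3 genes were lower after shearing, where 28.7% of features were called lower. The log2 fold change was -1.37 ± 0.05 for MEG3, -1.18 ± 0.08 for KCNQ1OT1 and -0.85 ± 0.05 for NORAD (SE, n = 2 against 2; adjusted p = 5.01e-11, 5.81e-08 and 3.75e-09). Those values lay above 2.5%, 4.2% and 9.0% of the features tested. In total RNA, sheared total RNA against unsheared total RNA, 16.6% of features were called higher and 5.54% lower. KCNQ1OT1 was higher in the sheared libraries (log2 0.50 ± 0.08, adjusted p = 0.000428). NORAD was lower by a narrow margin, at -0.15 ± 0.05 (adjusted p = 0.0486), and this call was lost without the first sheared library (adjusted p = 0.108) and without the second unsheared library (adjusted p = 0.214). MEG3, at 0.14 ± 0.05, did not pass (adjusted p = 0.0546). It was at -0.01 without the second sheared library (adjusted p = 0.917). It was called higher without the first sheared library (0.18, adjusted p = 0.0283), without the filter on low counts (adjusted p = 0.0473) and over the authors' unit (adjusted p = 0.0469).

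The effect of purification thus depended on shearing for each gene. The interaction, the log2 change on purification in sheared RNA minus that in unsheared RNA, was called lower for 25.8% of features. It was -1.68 ± 0.11 for KCNQ1OT1, -1.51 ± 0.07 for MEG3 and -0.70 ± 0.07 for NORAD (SE over 8 libraries; adjusted p = 2.17e-07, 3.36e-09 and 2.2e-06). KCNQ1OT1 was the gene with opposite directions, lower on purification of sheared RNA and higher on purification of intact RNA. Its length of 91.7 kb, against 5.4 kb for NORAD, is given beside this, and the part of length was not tested.

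Within MEG3 the counts were concentrated in a block 2 to 10 kb from the start, and TT-Seq held the smallest share there. It held 42.2% and 46.9% of the counts over the RefSeq gene in TT-Seq, 66.3% and 70.2% in 4sU-Seq, 82.5% and 83.2% in sheared total RNA, and 83.5% and 84.5% in unsheared total RNA. The level there was 25.6 ± 3.39 CPM per kb in TT-Seq and 186 ± 7.78 in sheared total RNA (SD, n = 2). The total RNA libraries had the largest share, with no overlap between purified and unpurified groups.

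From 20 to 24 kb the order turned round. TT-Seq had 31.9 and 28.9 CPM per kb there and 4sU-Seq 36.4 and 26.8, against 18.1 ± 2.62 in sheared total RNA and 14.7 ± 1.77 in unsheared total RNA (SD, n = 2). This stretch held 28.9% and 24.2% of the MEG3 counts in TT-Seq but 3.74% and 4.34% in sheared total RNA. ChIP counts were low in the same stretch, as given below. The treatment of multiply matching reads is not stated, and whether all RNA counted in this stretch came from MEG3 was not tested. At the very end, from 34 kb on, the sheared purified libraries were low again, at 23.4 and 26.9 against 113 and 75.8 in sheared total RNA. The stretches between these blocks, 10 to 20 kb and 24 to 34 kb, were low in all 8 RNA libraries, between 4.25 and 8.68 CPM per kb. Exons of MEG3 were not placed on these bins, since no exon coordinates on this build were used here.

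**Figure D2:**
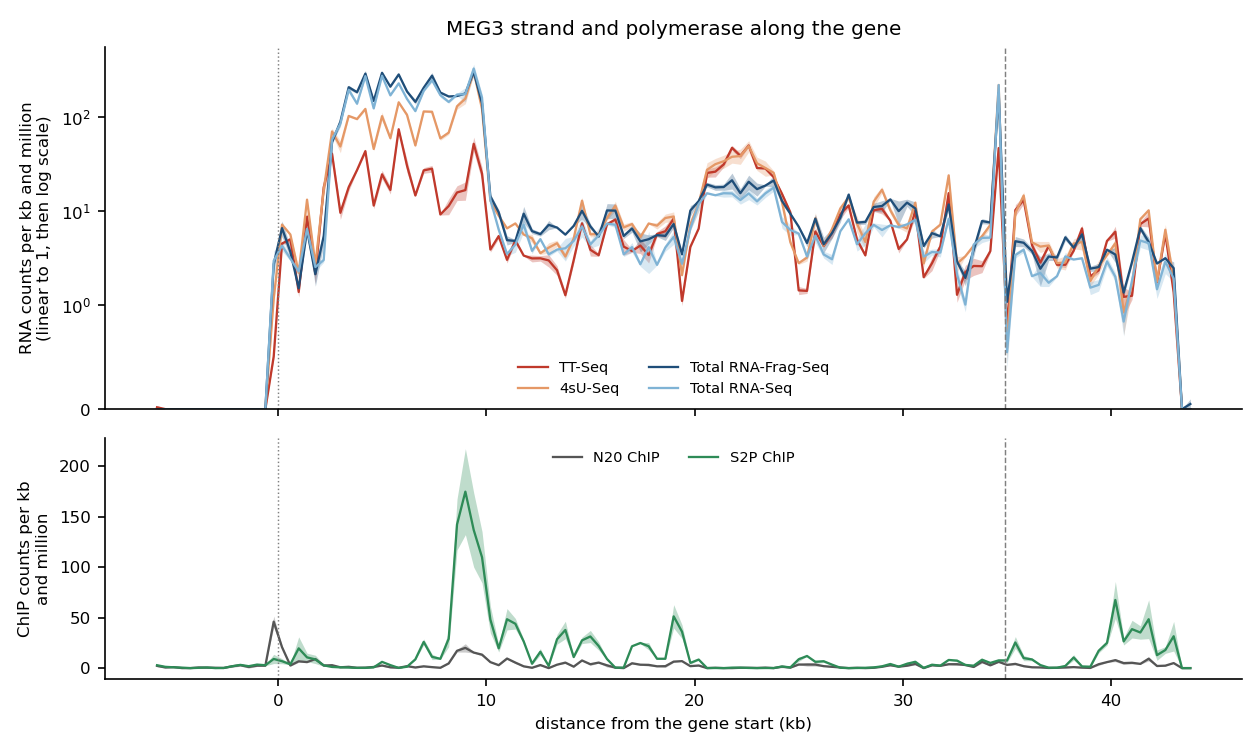
RNA counts on the MEG3 strand (top; linear to 1, then log scale) and ChIP counts (bottom; linear) as CPM per kb in steps of 0.4 kb by distance from the RefSeq start (dotted) to past the end (dashed); lines are means of 2 libraries and bands span both. Taken over each block, TT-Seq is below total RNA from 2 to 10 kb and above it from 20 to 24 kb, though not in every bin at the edges of the blocks, and S2P is highest near 9 kb.

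A mature microRNA lies within the low stretch, and it is shown because MEG3 is its host. The hairpin of MIR770 begins 26.3 kb from the start, and the mature RNA, with its seed (bases 2 to 8) in capitals, reads:
hsa-miR-770-5p: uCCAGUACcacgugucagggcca
The 2 bins that overlap the hairpin held 114 and 120 counts in TT-Seq, 88 and 71 in 4sU-Seq, 47 and 53 in sheared total RNA, and 38 and 27 in unsheared total RNA. These are counts of long RNA on the host strand, not of the mature microRNA.

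Upstream of the RefSeq start the MEG3 span was almost empty. The first of its 5 equal parts held 18 and 22 counts in TT-Seq and 3 and 2 in sheared total RNA. The next part held 2 and 1 counts in TT-Seq and 0 and 0 in both total RNA groups, and it did not pass the filter on low counts. A second hairpin in the span, MIR2392, also lies before the RefSeq start.

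Fits on 5 equal parts of every feature showed where along each gene purification made a difference. With 68321 parts tested, 35.6% were called lower and 36.1% higher in TT-Seq against sheared total RNA, and 29.3% lower and 25.9% higher in 4sU-Seq against unsheared total RNA. In MEG3 the fourth part, which takes in most of the block from 2 to 10 kb, fell by 2.66 ± 0.08 on the log2 scale in TT-Seq against sheared total RNA (SE; edgeR). The last part takes in the stretch from 20 to 24 kb. With 12.8 and 12.6 CPM per kb against 14.3 and 13.7, this part was at -0.14 ± 0.07 and did not pass (adjusted p = 0.069 by edgeR). Its direction depended on the scaling: it was 0.16 and called higher without TMM (adjusted p = 0.0337), and -0.20 and called lower without the second sheared total RNA library (adjusted p = 0.0307). The third part, which reaches over the RefSeq start, was slightly higher in TT-Seq (0.29 ± 0.10), a call lost without the second TT-Seq library or either sheared total RNA library (adjusted p = 0.199, 0.101 and 0.0539). The first part, with its few counts, was also called higher (1.75 ± 0.62, adjusted p = 0.0171), and that call was lost without the same libraries. Without shearing the fourth part was lower in 4sU-Seq (-0.80 ± 0.07) and the last part higher (0.45 ± 0.07).

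In KCNQ1OT1 all 5 parts were lower in TT-Seq than in sheared total RNA, and the difference shrank from the first to the fourth part. From first to last the log2 fold changes were -1.38 ± 0.09, -1.27 ± 0.08, -0.86 ± 0.08, -0.48 ± 0.10 and -0.60 ± 0.09 (SE). The call of the fourth part was lost without TMM scaling (adjusted p = 0.14). Against unsheared total RNA the first part of 4sU-Seq did not pass (-0.03 ± 0.09, adjusted p = 0.809) and was 0.22 and called higher without TMM (adjusted p = 0.0397), and the others were higher by 0.34, 0.84, 1.16 and 0.80.

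The same slope shows in the levels. The first 18.4 kb of KCNQ1OT1 had 3.67 and 3.63 CPM per kb in TT-Seq and the last 18.4 kb 1.09 and 1.09, so the first was 3.37 and 3.33 times the last. That ratio was 3.74 and 3.53 in 4sU-Seq, 5.75 and 5.71 in sheared total RNA, and 5.85 and 7.11 in unsheared total RNA. Purified and total RNA did not overlap, with the steeper fall in total RNA. At 50% of the counts of the gene the distance from the start was 34.5 and 32.3 kb in TT-Seq, 34.9 and 35.1 kb in 4sU-Seq, 27.5 and 27.3 kb in sheared total RNA, and 26.9 and 25.5 kb in unsheared total RNA.

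KCNQ1OT1 was covered from end to end. Of its 458 bins, 0 to 4 were empty in any RNA library, and the 10 fullest bins held 9.91% and 9.65% of the counts in TT-Seq. In MEG3, over the 174 bins of the RefSeq gene, the 10 fullest held 27.9% and 27.9% in TT-Seq and 36.6% and 39.1% in unsheared total RNA. From 50 to 60 kb 4sU-Seq reached 10.0 and 8.95 CPM per kb, against 3.66 and 3.38 in TT-Seq. Beyond 60 kb all 4 RNA groups were lower than over the 10 kb before.

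**Figure D3:**
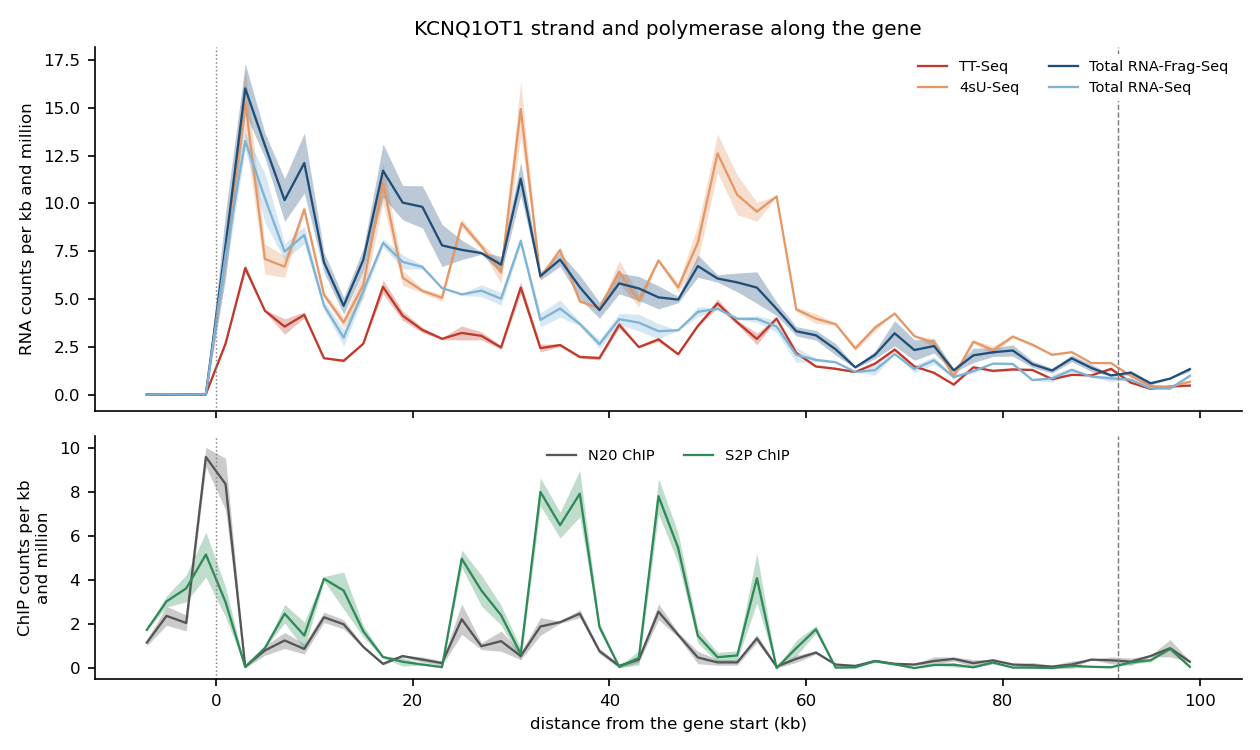
RNA counts on the KCNQ1OT1 strand (top) and ChIP counts (bottom) as CPM per kb in steps of 2 kb by distance from the start (dotted) to past the end (dashed); lines are means of 2 libraries and bands span both. RNA is lower at the end than at the start in every group, N20 peaks at the start and S2P between 30 and 50 kb.

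In NORAD all 5 parts were lower on purification, and the last part least. TT-Seq against sheared total RNA gave -2.32 ± 0.09, -2.27 ± 0.08, -2.49 ± 0.08, -2.23 ± 0.10 and -1.89 ± 0.14 from the first to the last part (log2, SE). In 4sU-Seq against unsheared total RNA the first 4 parts lay between -2.07 and -1.92 and the last part at -0.85 ± 0.14. In the last part, of 1.0 kb, 4sU-Seq held 46.9 and 51.3 CPM per kb and unsheared total RNA 93.9 and 83.5. That part held 37.3% and 37.6% of all NORAD counts in 4sU-Seq, against 22.9% and 20.4% in unsheared total RNA and 31.9% and 27.8% in TT-Seq. The 2 sheared total RNA libraries differed there, at 91.8 and 68.9 CPM per kb.

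**Figure D4:**
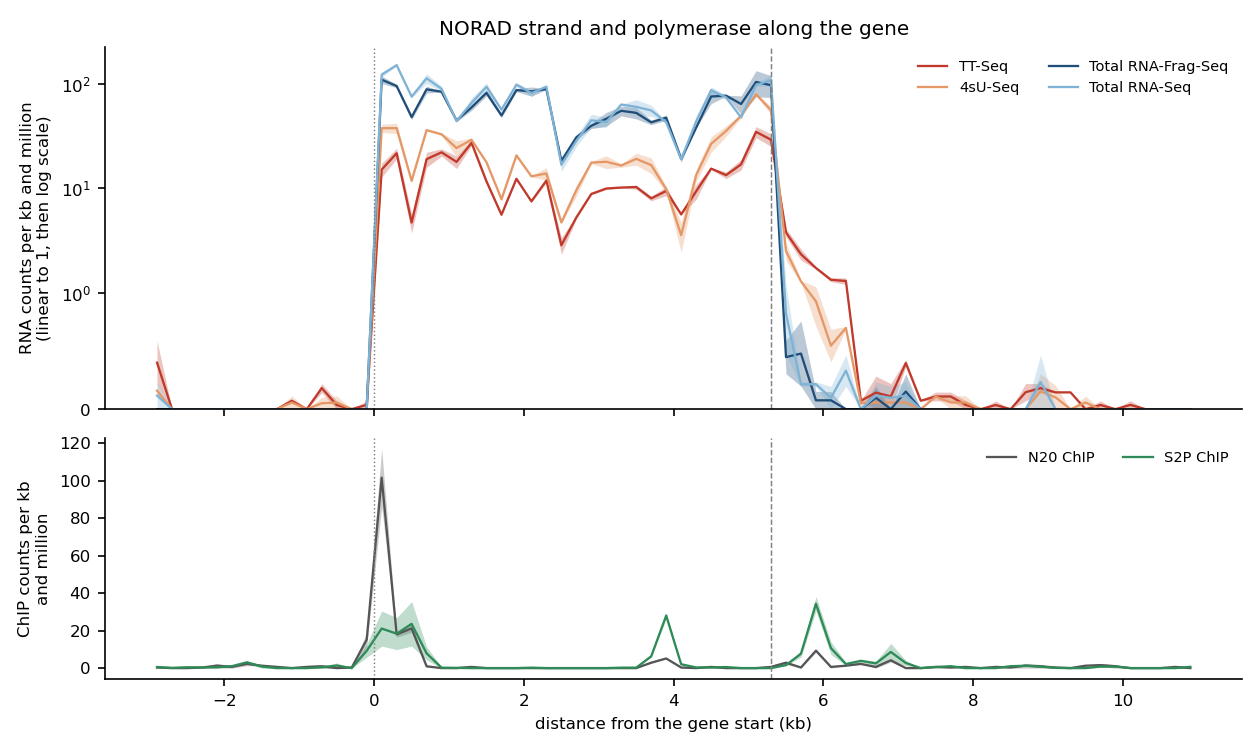
RNA counts on the NORAD strand (top; linear to 1, then log scale) and ChIP counts (bottom; linear) as CPM per kb in bins of 0.2 kb by distance from the start (dotted) to past the end (dashed); lines are means of 2 libraries and bands span both. TT-Seq lies below both total RNA groups over most of the gene, 4sU-Seq comes close to unsheared total RNA near the end, and both purified groups lie above total RNA in the first 1 kb past it.

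Past the annotated end of NORAD the purified libraries were the high ones, unlike inside the gene. The first 5 kb past the end held 162 and 178 counts in TT-Seq, 58 and 66 in 4sU-Seq, 11 and 5 in sheared total RNA, and 11 and 10 in unsheared total RNA. Relative to the last 5 kb of the gene the level there was 3.49% and 3.98% in TT-Seq, 1.04% and 1.26% in 4sU-Seq, 0.109% and 0.0652% in sheared total RNA, and 0.131% and 0.142% in unsheared total RNA. TT-Seq was the highest and did not overlap the others. From 5 to 10 kb past the end TT-Seq held 3 and 8 counts. The authors' unit for NORAD ends 4.0 kb past the gene.

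The other genes had signal past their ends in every RNA group. For MEG3 the share was 61.2% and 56.5% in TT-Seq against 19.5% ± 3.57 in 4sU-Seq (SD, n = 2), 15.8% and 19.2% in sheared total RNA, and 11.1% and 10.9% in unsheared total RNA. The level past the end was 4.71 ± 0.317 CPM per kb in TT-Seq and 4.72 ± 0.570 in 4sU-Seq (SD, n = 2), so the labelled groups differed in the level inside the gene. For KCNQ1OT1 the shares were 40.4% and 45.0% in TT-Seq and 67.6% and 56.8% in sheared total RNA, with sheared total RNA the higher. They were 32.6% and 40.5% in 4sU-Seq and 42.6% and 58.9% in unsheared total RNA, and both of these overlapped TT-Seq. The authors' unit runs 8.3 kb past the end of MEG3 and 20.3 kb past that of KCNQ1OT1.

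**Figure D5:**
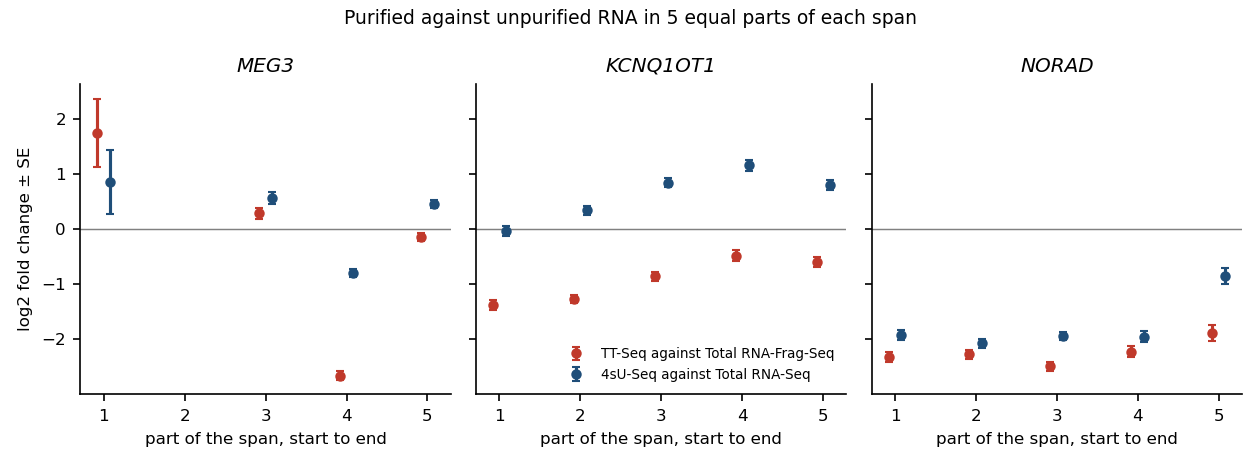
Log2 fold changes (points) with SE (bars) on purification of sheared RNA (TT-Seq against sheared total RNA) and of unsheared RNA (4sU-Seq against unsheared total RNA) in 5 equal parts of each span from start to end; part 2 of MEG3 was not tested. The values of KCNQ1OT1 rise from -1.38 in part 1 to -0.48 in part 4, and those of NORAD stay between -2.49 and -1.89 for sheared RNA.

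Polymerase ChIP was used to ask where along the genes the enzyme stood. With N20 all 3 genes had a peak at the start. In MEG3 N20 also rose inside the gene, to 15.7 and 12.6 CPM per kb from 8 to 10 kb. Within 500 bp of the start N20 gave 238 and 370 counts in MEG3, 232 and 364 in KCNQ1OT1, and 258 and 458 in NORAD. Per kb, this window was 9.2 and 8.12 times the rest of the gene in MEG3, 39.5 and 30.8 times in KCNQ1OT1, and 61.9 and 73.3 times in NORAD. MEG3 had the lowest ratio and NORAD the highest, with no overlap between genes. The rest of NORAD rested on 20 and 30 counts, so its ratio carries a wide counting error. The length of the rest also takes in stretches almost without ChIP counts. In NORAD the N20 libraries held 2 and 0 counts from 1 to 2 kb and 0 and 0 from 2 to 3 kb. A stretch of KCNQ1OT1 soon after its start was nearly empty too. Whether ChIP reads could be matched in these stretches, and how far they raise the ratios, was not tested. Every nonzero ChIP value in the deposited bins was an even number, and with the counts halved no call of the 3 genes changed. No input library was used, and 35.4% of the bins in KCNQ1OT1 and 37.0% of those in NORAD were empty in all 4 ChIP libraries, against 8.3% in MEG3 and 35.7% over all units.

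With the S2P antibody the start stood out less. In MEG3 the start window was 0.299 and 0.545 times the rest of the gene, so S2P was lower there than inside. In KCNQ1OT1 it was 2.55 and 5.92 times and in NORAD 4.61 and 9.68 times the rest, above 1 but below the N20 ratios of the same genes. In MEG3 S2P peaked near 9 kb, where a single bin held 1266 and 1076 counts, and from 8 to 10 kb it reached 94.1 and 143 CPM per kb. From 20 to 24 kb, where TT-Seq RNA was high, S2P was 1.02 and 0.956 and N20 0.318 and 0.518 CPM per kb. Mean S2P was 22.2 from 18 to 20 kb and 5.86 from 24 to 26 kb, so the ChIP counts dropped abruptly in this stretch. Whether ChIP reads could be matched there was not tested, so the low counts do not show that polymerase was absent. In KCNQ1OT1 the S2P level was highest from 30 to 40 kb, at 5.54 and 4.44 CPM per kb, and had fallen to 0.147 and 0.0819 by 70 to 80 kb. In NORAD the bin with the highest mean S2P level lay 5.9 kb from the start, past the end of the gene, with 332 and 134 counts. The second library alone had more in the bin 0.5 kb from the start, which held 102 and 156 counts.

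S2P and N20 were also compared by their sums over each gene, for MEG3 over the longer span. S2P against N20 was 1.76 ± 0.17 for MEG3 and 0.91 ± 0.17 for KCNQ1OT1 on the log2 scale (SE, n = 2 against 2, adjusted p = 2.69e-06 and 0.000657 by edgeR). Of 20125 features 22.3% were called higher with S2P. MEG3 had 529 and 708 CPM with S2P against 191 and 174 with N20, and KCNQ1OT1 177 and 138 against 85.1 and 82.0. Without the part before the RefSeq start, MEG3 had 463 and 647 CPM with S2P against 122 and 109 with N20. NORAD, with 14.8 and 29.0 against 33.1 and 27.7, overlapped and did not pass (-0.47 ± 0.30, adjusted p = 0.233). The call for KCNQ1OT1 was lost without TMM scaling (adjusted p = 0.155), and NORAD was called lower without the second S2P library (-1.05, adjusted p = 9e-07) and without TMM (-1.11, adjusted p = 0.00919). Set against N20, the TT-Seq level per kb was 2.52 times the N20 level in MEG3, counted over the longer span, 2.87 times in KCNQ1OT1 and 2.41 times in NORAD. The median of this ratio over 18724 features was 0.392. The part of the MEG3 span before the RefSeq start, almost empty of RNA, enters its ratio. Over the RefSeq gene alone MEG3 had 13.2 CPM per kb in TT-Seq and 3.325 with N20, so its ratio there is higher.

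The neighbours of the imprinted genes were read from lists, of which only members with a named unit were tested. In the KCNQ1OT1 domain 6 of 11 listed genes had a unit, and all 6 were called lower in TT-Seq than in sheared total RNA, where 37.8% of all features were called lower and 43.2% higher, with a median of -1.19 against 0.09 over all features. The lowest were CDKN1C, an inhibitor of cyclin-dependent kinases, at 7.26 ± 0.517 against 28.7 ± 4.19 CPM (SD, n = 2; log2 -1.99 ± 0.11), and PHLDA2, a restrainer of placental growth (-1.63 ± 0.16). The least lowered were OSBPL5, a lipid transfer protein gene (-0.54 ± 0.07), and CARS1, which charges the cysteine tRNA (-0.55 ± 0.06). All of the 6 but PHLDA2 are in the authors' mRNA class, whose median in TT-Seq against sheared total RNA was -0.34 over 7808 units. In 4sU-Seq against unsheared total RNA 4 of the 6 were lower and 1 higher, where 28.2% of all features were called lower and 40.2% higher. KCNQ1, SLC22A18, TSSC4, ASCL2 and TRPM5 had no unit of their name.

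In the MEG3 domain 5 of 10 listed genes had a unit, and 3 were lower and 0 higher in TT-Seq against sheared total RNA in edgeR (median -0.68), where 37.8% of all features were called lower and 43.2% higher. They were SLC25A29, a mitochondrial carrier of basic amino acids (-2.87 ± 0.13), WARS1, which charges the tryptophan tRNA (-0.71 ± 0.06), and the non-coding RNA gene MEG8, which follows MEG3 on the same strand (-0.68 ± 0.05). MEG8 had 693 ± 11.6 CPM in TT-Seq and 1113 ± 51.2 in sheared total RNA (SD, n = 2). Without TMM scaling 3 were lower and 2 higher. DLK1, RTL1, DIO3, MEG9 and BEGAIN had no unit of their name.

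Of imprinted genes of other domains, 7 of 28 listed had a unit, and 3 were higher and 3 lower (median 0.11), close to the 43.2% higher and 37.8% lower among all features. COPG2, a coat protein gene of Golgi vesicles (0.69 ± 0.06), and the inositol phosphatase gene INPP5F (0.25 ± 0.08) were highest, and NAP1L5, of the nucleosome assembly protein family (-1.19 ± 0.18), and BLCAP (-0.87 ± 0.08) lowest. Without TMM scaling 5 were higher and 2 lower.

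Genes for proteins reported to bind NORAD are given singly. In TT-Seq against sheared total RNA the splicing factor gene CDC5L was higher, at 144 ± 0.257 against 82.9 ± 4.07 CPM (SD, n = 2; log2 0.79 ± 0.06, SE). The unit named for ALYREF, an mRNA export factor gene, was lower, at 47.5 ± 1.60 against 178 ± 2.12 CPM (log2 -1.91 ± 0.10), as was the RNA-binding protein gene KHDRBS1 (-0.55 ± 0.05). The ALYREF unit runs over chr17:81865309-81892054 and may take in other sequence on that strand. PUM2, a repressor of bound RNAs, did not pass (-0.08, adjusted p = 0.118).

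Other long non-coding RNAs were put in 2 lists by an assigned compartment, mainly cytoplasmic or mainly nuclear. The compartment was not measured here and may not hold for each RNA, TUG1 among them. Among 12 mainly cytoplasmic RNAs with a unit, of 16 listed, 6 were lower and 2 higher in TT-Seq against sheared total RNA, with a median of -0.18, where 37.8% of all features were called lower and 43.2% higher. Without TMM scaling 4 were lower and 5 higher. SNHG29, a host of small nucleolar RNAs (-1.97 ± 0.06), and TUG1 (-1.86 ± 0.05) were lowest and the snoRNA hosts DANCR and ZFAS1 (0.26 ± 0.09 and 0.26 ± 0.08) highest. NORAD, at -2.24, was below each of these 12. Among 7 mainly nuclear RNAs with a unit, of 10 listed and with MEG3 and KCNQ1OT1 among them, 5 were lower and 0 higher in edgeR (median -1.11), against the same shares of all features. MEG3 and KCNQ1OT1 are among the 5 lower ones, and the median is the value of KCNQ1OT1 itself, so this list is not independent of them. For this list 5 were lower and 2 higher without TMM scaling. MALAT1, a resident of nuclear speckles, fell by 1.50 ± 0.08 and JPX, of the X inactivation centre, by 0.84 ± 0.05. Whether the 2 lists differ was not tested. Of 11 markers of other blood cells, stroma and epithelium 4 had a unit (CD3D, LYZ, EPCAM and KRT19), and all 4 were lower in TT-Seq, where 37.8% of all features were called lower. Their summed level was 44.9 and 43.4 CPM in TT-Seq, 70.9 and 82.2 in 4sU-Seq, 139 and 119 in sheared total RNA, and 159 and 163 in unsheared total RNA. Their part in the results was not tested.

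The named units whose pattern over the 8 RNA libraries was closest to each gene were found among 10016 by the root mean square difference of centred log2 CPM. For MEG3 they were KMT2D, a histone methyltransferase gene (0.071), the cholesterol synthesis gene LSS (0.075) and the laminin gene LAMA5 (0.076). For KCNQ1OT1 they were EOLA2-DT (0.057), LOC124904537 (0.068) and LINC03009 (0.089). For NORAD they were the chaperone gene HSPA8 (0.111), APH1A, a subunit gene of gamma-secretase (0.116), and TOMM22, part of the mitochondrial import pore (0.116). HSPA8 had 101 CPM in TT-Seq, 208 in 4sU-Seq, 536 in sheared total RNA and 620 in unsheared total RNA, where NORAD had 73.3, 132, 346 and 383.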

How the data were processed

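RNA of labelled K562 cells (8 libraries) and polymerase ChIP (4 libraries) were analysed. The submitters' processing notes name the tools SAMtools, Bowtie2 2.1.0 and STAR 2.3.0 without their roles. The authors deposited raw counts per bin of 200 bp, split by strand in RNA but not in ChIP libraries, so introns and exons are counted together. The treatment of multiply matching reads is not stated. Columns named L and T, with and none, were read as labelled and total, with and without fragmentation.

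Counts were summed over the authors' units, 3 of which were replaced by the gene spans, on the feature's own strand, with a bin counted where its midpoint lay inside. edgeR 4.0.16 in R 4.3.3 (filterByExpr, TMM, robust glmQLFit over all 8 RNA or all 4 ChIP libraries, glmQLFTest) gave every log2 fold change and adjusted p, with Benjamini-Hochberg adjustment over all features and a threshold of 0.05. A second fit used 5 equal parts of every feature with at least 5 bins. On simulated counts for TT-Seq against sheared total RNA, 200 of 200 changed features were recovered, with 13 false calls. Only these few features were changed, all of them well counted and by large amounts. The recovery of small changes, and scaling where most features differ, were not tested by it. Units took a RefSeq symbol where the spans overlapped by a Jaccard index of 0.5 or more, or where a unit starting no more than 3 kb away took in 0.8 or more of the gene, which named 10038 units. By the second rule a unit can be much longer than the gene it is named for, and its counts then include other sequence on that strand. Percentages and ranks are over the features tested. Named in full were the 3 genes, of each list the 2 highest and 2 lowest that passed in TT-Seq against sheared total RNA, and the 3 units most like each gene; PUM2, TFRC and LMO2 were added after their values were seen. Some listed genes, and the counts that need them, are not reported here. The genes and lists were chosen with earlier results of these data known. The authors' exon and intron tables were not used here, because their rows could not be paired with units. No external standard was used, so values are relative within a library. Alternatives were DESeq2 1.42.0 (Wald test, or its size factors in edgeR), no TMM, no filter on low counts, the total over all bins, whole bins, the authors' spans, a replicate block, only the libraries compared, and leaving out each library. Added after seeing the data were the RefSeq span, halved ChIP counts and the lists under other scalings.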

Additional observations from a re-analysis of the deposited data

Results flagged for a closer look

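The change on purification differed between sheared and unsheared RNA for each gene, by an interaction term in edgeR's quasi-likelihood fit over the 8 RNA libraries. The difference, sheared minus unsheared on the log2 scale, was -1.51 for MEG3 (-1.96 against -0.45), -1.68 for KCNQ1OT1 (-1.11 against 0.57) and -0.70 for NORAD (-2.24 against -1.54). All 4 library groups enter this term, and 25.8% of features passed in this direction.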

How the results depend on the processing

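All values are log2 fold changes from edgeR unless another quantity is named. Over the 3 genes, 230 recomputed values kept their direction and side of the threshold, 4 lost a call, 6 gained one and 3 changed sign, and over the 5 parts of each gene 447 were kept, 20 lost, 7 gained and 2 changed sign. For TT-Seq against sheared total RNA every recomputed value of the 3 genes kept its call, leaving out a library included. Shearing of total RNA was the least stable comparison. For MEG3 it was 0.15 and called without a filter on low counts, 0.15 and called over the authors' unit, -0.00 without TMM, and -0.01 to 0.18 on leaving out 1 library. For NORAD it was -0.15 and no longer called without the filter (adjusted p = 0.0561), and -0.27 to -0.14 on leaving out 1 library. S2P against N20 without TMM was 0.28 for KCNQ1OT1 and -1.11 for NORAD. For NORAD it was 0.03 over the authors' unit, and -1.05 to -0.05 on leaving out 1 library. Without TMM the last part of MEG3 was at 0.16 (TT-Seq against sheared total RNA) and the first part of KCNQ1OT1 at 0.22 (4sU-Seq against unsheared total RNA). With 1 kb on each side of the start, the N20 ratio of start to rest was 4.78 in MEG3, 22.3 in KCNQ1OT1 and 34.4 in NORAD, and with whole bins it was 10.6 in MEG3. Apart from the changed windows and the smaller samples so defined, the cause of these changes was not tested.

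Without TMM the median of all features moved by 0.35 for TT-Seq against sheared total RNA, where 69.8% of calls were then higher against 53.3% before. It moved by 0.14 for 4sU-Seq against unsheared total RNA (70.0% of calls higher against 58.8%), by -0.14 for shearing of total RNA (33.4% against 74.9%), by 0.20 for the interaction (51.9% against 25.4%) and by -0.63 for S2P against N20 (16.4% against 54.5%). With DESeq2 size factors the share was 47.7% for 4sU-Seq against unsheared total RNA, 45.1% for shearing of total RNA and 42.6% for the interaction.

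Libraries with the same replicate number did not deviate together (correlations 0.003 to 0.099), so the numbers were not taken as pairs. With the replicate number as a block, MEG3 stood at -1.96 for TT-Seq against sheared total RNA and passed for shearing of total RNA (0.14, adjusted p = 0.0407). No other call on a whole gene changed under the block, and of the parts the first of KCNQ1OT1 gained a call for shearing of total RNA (0.24, adjusted p = 0.0495). With 2 libraries per group and few ChIP counts in NORAD, small differences in ChIP were not detectable.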

Other observations

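The authors' deposited table gives a synthesis and a decay rate for each unit, with no unit of measure in the sources used here, so only the place of each gene among 20241 units with rates is given. In the authors' deposited table the synthesis rate of the NORAD unit lay above 99.73% of the units and that of KCNQ1OT1 above 98.19%. The synthesis rate of the MEG3 unit in the authors' deposited table lay above 1.12% of the units and its decay rate above 0.69%. The TT-Seq level of MEG3 per kb, counted from the bins over the longer span, lay above 98.5% of the features tested. That of NORAD lay above 99.7% and that of KCNQ1OT1 above 93.4%. The decay rates of KCNQ1OT1 and NORAD in the authors' deposited table lay above 68.58% and 64.71% of the units. The source of the difference for MEG3 was not tested.

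On the strand opposite KCNQ1OT1, which is the KCNQ1 strand, the 5 kb before the KCNQ1OT1 start held 126 and 139 counts in TT-Seq, 86 and 105 in 4sU-Seq, 26 and 13 in sheared total RNA, and 16 and 19 in unsheared total RNA. The KCNQ1OT1 strand held 3 and 5 counts in TT-Seq in that window.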
